A study of Mus musculus with 3 samples.

Results

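The stretch described here is a 1-Mb window of mouse chromosome 12, from 112 to 113 Mb on the mm10 build, in which DNase I accessible sites carried high scores. It was chosen by its measured peak scores, so the scores below describe the window and test nothing. Its members are all peaks centred inside it: 359 of 281048 peaks on the numbered and sex chromosomes in the list of biological replicate 1, and 125 of 88879 in the list of biological replicate 2. They are set beside the 3 Mb before the window, with 588 and 180 peaks, and the 3 Mb after it, with 1357 and 58.

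The cells were MEL, a mouse erythroleukemia line blocked at an early stage of red cell formation, grown as 1 condition with no treated or control group. DNase-seq was run on 3 libraries. Biological replicate 1 had 2 libraries, with technical numbers 1 and 3, whose merged reads gave 1 peak list, and biological replicate 2 had 1 library and 1 list. With 1 list per replicate there is no test between samples, and the intervals given cover counting over peaks only.

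All peaks were 150 bp wide and carried a whole-number score of at most 150. The meaning of the score, the peak caller, the aligner and the number of reads are not given in the sources used here. Depth is therefore unknown. Replicate 1 had the longer list and the higher median score over the whole list, 73 against 32, and scores are therefore read within a list only. As a check of the label, all 8 erythroid genes listed (among them the factors Gata1, Klf1 and Tal1) had a promoter peak in both lists, 5 B cell genes had 2 and 0, 5 T cell genes had 2 and 0, and 4 fibroblast genes had 4 and 3. Of all coding genes, 58.3% and 49.4% had a promoter peak. In replicate 1 the erythroid promoters scored 138 to 149 and the fibroblast ones 85 to 138. In replicate 2 the erythroid promoters scored 46 to 106, and the fibroblast ones with a peak 34 to 54. The counts alone therefore do not set the erythroid genes apart from the fibroblast genes. The part of other cells in the scores below was not tested.

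DNase I cuts DNA where nucleosomes are displaced, so cut sites mark promoters, enhancers and insulators. Accessible promoters usually sit in CpG-rich DNA at gene starts, while enhancers in red cell precursors often carry words bound by GATA, KLF and RUNX factors. Neighbouring sites share a chromatin domain, and past the window lies the immunoglobulin heavy chain locus, whose gene segments are rearranged in B cells.

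The 4 sequences below are given because they mark the strongest and weakest members and the place where the lowest scores rise. They are on the plus strand, 5′ to 3′, read from the GRCm38 assembly of RefSeq (the same build as mm10). Capitals mark matches on either strand to the words searched: the word AGATAA for the family of GATA factors, the word CCACACCC for KLF factors, the word CCGGAAG for ETS factors, the word TGANTCA for AP-1, the word TGTGGTT for RUNX factors, the word GGGGCGG for SP factors, and the consensus of CTCF. The SP word can lie inside longer runs of itself, and no word lies inside another. The first is the Cdca4 promoter peak at chr12:112829516-112829665, the highest-scoring promoter peak of the replicate 2 list that lies outside annotated untranslated exons.
Cdca4 promoter: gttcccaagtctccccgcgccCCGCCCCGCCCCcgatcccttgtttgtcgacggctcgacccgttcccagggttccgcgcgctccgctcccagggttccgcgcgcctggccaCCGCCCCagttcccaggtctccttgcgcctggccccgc
The second is the highest-scoring peak of that list away from promoters, at chr12:112464176-112464325, between genes.
Strongest intergenic site: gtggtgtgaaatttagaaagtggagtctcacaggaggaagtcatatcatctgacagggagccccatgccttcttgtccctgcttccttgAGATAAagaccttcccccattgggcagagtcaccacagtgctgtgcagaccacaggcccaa
The third is 1 of the weakest peaks of that list, at chr12:112360976-112361125.
Weakest site: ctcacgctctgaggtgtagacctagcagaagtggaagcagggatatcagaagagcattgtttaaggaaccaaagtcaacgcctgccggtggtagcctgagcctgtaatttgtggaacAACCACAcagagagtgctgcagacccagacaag
The last lies where scores below 50 stop in the replicate 1 list, by the start of Rd3l inside the Tdrd9 gene. Of this peak, at chr12:111980636-111980785, 83 bases outside untranslated exons are printed.
Last low peak: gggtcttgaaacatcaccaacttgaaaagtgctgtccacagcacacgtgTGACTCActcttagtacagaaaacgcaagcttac

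The Cdca4 promoter peak, 74.7% G or C, scored 112 in replicate 2 and 150 in replicate 1, and held 3 matches to the SP word, of which the first pair overlap. The strongest intergenic site scored 126 and 150, lay 25197 bp from the start of A530016L24Rik, was 52.0% G or C and held a GATA word. The weakest site scored 16 in replicate 2 but was overlapped by a replicate 1 peak of 109, and held a RUNX word. The last low peak scored 43 in replicate 1, had no overlapping replicate 2 peak and held an AP-1 word.

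In replicate 1 the window's scores ran from 56 to 150 with a median of 106 (95% interval from order statistics 101 to 110), against 78 (74 to 82) in the 3 Mb before and 73 over the whole list. In replicate 2 they ran from 16 to 126 with a median of 56 (44 to 62), against 35 (32 to 39) before and 32 over the list. The window's median thus lay above that of the preceding 3 Mb in both lists. Peaks were also dense, at 359 and 125 per Mb against 196 and 60 before. That reference is uneven: its single Mb held 69, 219 and 300 peaks in replicate 1, and 25, 66 and 89 in replicate 2. The window is uneven too, with 179 and 58.3 peaks per Mb from its start to the step described below. Some members share sequence, since 32 peaks of replicate 1 and 6 of replicate 2 overlapped another peak of their own list.

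**Figure D1:**
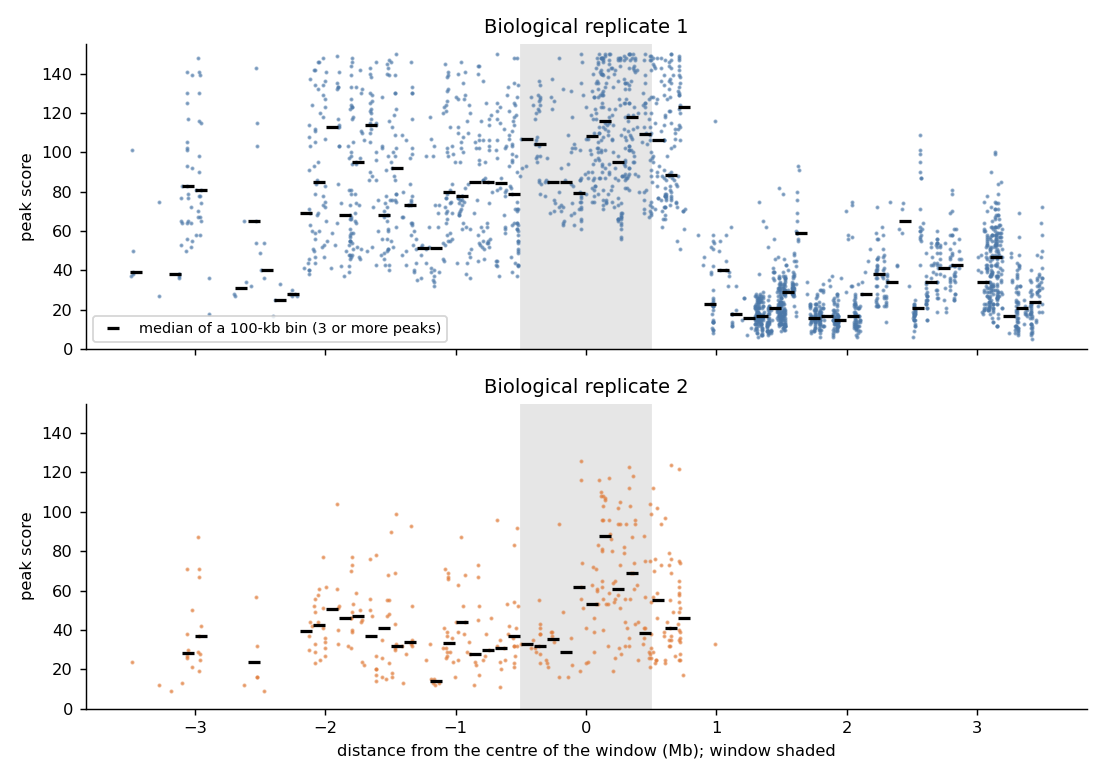
Score of each peak (vertical axis) against its distance in Mb from the window's centre, for both lists; the window is shaded and black dashes are medians of 100-kb bins with 3 or more peaks. The lowest points of replicate 1 lift at the left border and stay up past the right border; far to the right replicate 1 has many low-scoring peaks and replicate 2 has 1.

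The 3 Mb after the window were not of 1 kind. High scores went on past 113 Mb: up to the last peak of the replicate 1 run there were 132 peaks with a median of 106, and 57 peaks of replicate 2 with a median of 46. Beyond that point, in the immunoglobulin heavy chain locus, replicate 1 had 1225 peaks with a median of 24, and replicate 2 had 1 peak, scoring 33. The share of 32-bp words that occur once on the chromosome was between 54.1% and 77.3% in the 1-Mb windows after the window, and 94.4% in the window itself; the part of repeated sequence in the low scores was not tested. Set against both flanks together, the window's median was 67 higher in replicate 1 and 18.5 higher in replicate 2, and the replicate 1 figure rests largely on that locus, since against the 3 Mb before alone it was 28. The 3 Mb before are the reference used in what follows.

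Scores below the list's 25th percentile stopped close to the near border in replicate 1. The 25th percentile of the whole list is 50. Across the window no peak scored below it, in an unbroken run of 494 peaks over 1.38 Mb. The run began 18.4 kb before the window, inside Tdrd9 (a germ cell helicase gene), and ended 360 kb after it, inside the immunoglobulin constant gene Ighg3. The peaks next to the run both scored 43, and a run of this kind is always bounded by lower peaks. Its start depends on the limit. At the 10th percentile, 37, the run began at 111607791, and at the 5th, 31, at 110334811. Of 34566 runs over the 25th percentile in the list, the run of 494 was the third longest by number of peaks, after runs of 923 and 542.

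The 100-kb bin before the border, from 111.9 to 112 Mb, had 55 peaks and a lowest score of 37, and the first bin of the window had 5 peaks, with scores from 92 to 128. In the next bins the lowest scores were 78, 69, 63 and 61, so the lowest score did not stay at its first level. The bins from 112.5 Mb had lowest scores between 56 and 81. The borders of the window itself fall inside the high stretch: replicate 1 peaks next to them scored 88 outside and 107 inside at the near border, and 128 inside and 120 outside at the far one. In replicate 2 these scores were 52, 33, 31 and 99.

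In replicate 2 the start lay further in. The 25th percentile of its list is 20, and the unbroken run without lower scores went from 112717311 to 113222951, with 108 peaks. It was the second of 11788 runs, after 1 of 180 peaks. In the 4 bins from 112 to 112.4 Mb the replicate 2 medians were between 29 and 35.5. The bins of the Mb before had medians from 14 to 44, so the first bins of the window did not stand out from them.

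Where the mean score stepped up was sought by least squares, as the 1 stretch of at least 100 kb with a mean most unlike the rest. In replicate 2 this stretch ran from 112463451 to 112875811, with 80 peaks and a median of 67. The search over all 7 Mb in replicate 1 gave 109392151 to 113262911, a stretch that ends where the scores of the immunoglobulin locus begin. With the search ended there, a choice made after that result was seen, the replicate 1 stretch ran from 112463491 to 113224411, with 403 peaks and a median of 110. The starts of the replicate 1 and replicate 2 stretches then lay 40 bp apart, at the group of peaks that holds the strongest intergenic site printed above.

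Split at that step, the window can be described by 2 levels, as a search of this form always gives. From its start to that step, replicate 1 had 83 peaks, from 61 to 148, with a median of 92 (85 to 100), and from the step to its end 276 peaks, from 56 to 150, with a median of 111 (106 to 117). Replicate 2 had 27 peaks, from 16 to 94, with a median of 33 (25 to 38) before the step, and 98 peaks, from 19 to 126, with a median of 62.5 (56 to 74) past it. In the Mb before the run the medians were 78 (75 to 84) and 33 (31 to 38). Ahead of the step, replicate 1 thus lay above the preceding Mb and replicate 2 did not. Peak density before and past the step was 179 and 514 peaks per Mb in replicate 1, and 58.3 and 183 in replicate 2. No place of change in density was sought. In replicate 1 the 100-kb bins from 112.1 to 112.5 Mb held 27, 13, 18 and 26 peaks, and the next held 48. These parts were drawn after the edges were seen, and their difference is no separate result. In replicate 2 the least-squares stretch of the scores ended inside the window. On ranks of scores it ended at 113.221 Mb, and the run without scores below 20 ended at 113.223 Mb. The replicate 2 bin from 112.9 to 113 Mb had a median of 38.5, within the 14 to 44 of the bins of the Mb before. The bins from 113 to 113.3 Mb had medians of 55.5, 41 and 46, so where the upper level ended depended on the search.

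**Figure D2:**
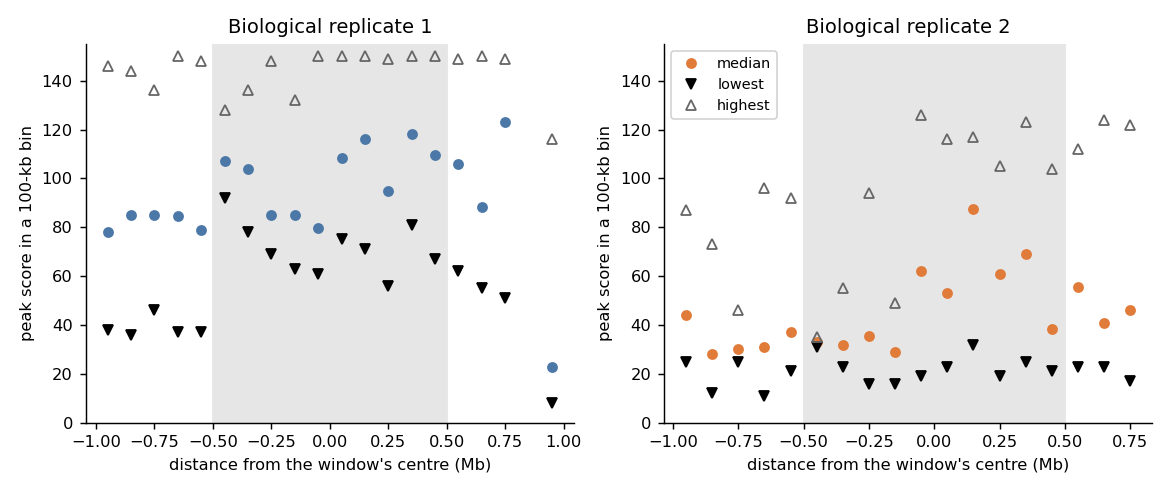
Lowest, median and highest peak score in 100-kb bins with 3 or more peaks, against distance in Mb from the window's centre (window shaded). In replicate 1 the lowest score goes from 37 (of 55 peaks) to 92 (of 5 peaks) across the near border while the median moves less. In replicate 2 the median goes from 29 to 62 in the middle of the window.

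Both weak and strong sites stood above the preceding 3 Mb, and how their rises compared depended on the list and on the scale. In replicate 1 the 10th percentile was 72 (69 to 75) in the window and 43 (40 to 46) before, and the 90th was 146 (142 to 148) and 133 (129 to 138). The difference was 29, 31, 28, 16.75 and 13 at the 10th, 25th, 50th, 75th and 90th percentiles, largest at the 25th. No score of either list passed 150, and 10 peaks of the window were at that value. The ratio of window to reference fell from 1.67 at the 10th percentile through 1.36 at the median to 1.10 at the 90th. On a scale stretched towards that ceiling, −ln(1 − score/151), the difference went the other way, from 0.31 at the 10th percentile through 0.48 at the median to 1.28 at the 90th. The ratio on that scale was 1.93, 1.86, 1.67, 1.42 and 1.60 over the 5 percentiles. In replicate 1, whether weak or strong sites stood further above the reference therefore depended on the scale for differences, while the ratio was largest at the 10th percentile on both scales.

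In replicate 2, whose scores end at 126 in the window, the difference was larger at strong sites on both scales. Its 10th percentile was 25.4 (21 to 29) against 16 (13 to 20), and its 90th was 104.6 (96 to 116) against 70.1 (66 to 77). The difference grew from 9.4 to 34.5, and from 0.07 to 0.56 on the stretched scale. The ratio stayed between 1.32 and 1.60 over the 5 percentiles of the scores, lowest at the 25th. On the stretched scale it was 1.64, 1.36, 1.76, 1.86 and 1.89, so there it was larger at the strong sites.

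**Figure D3:**
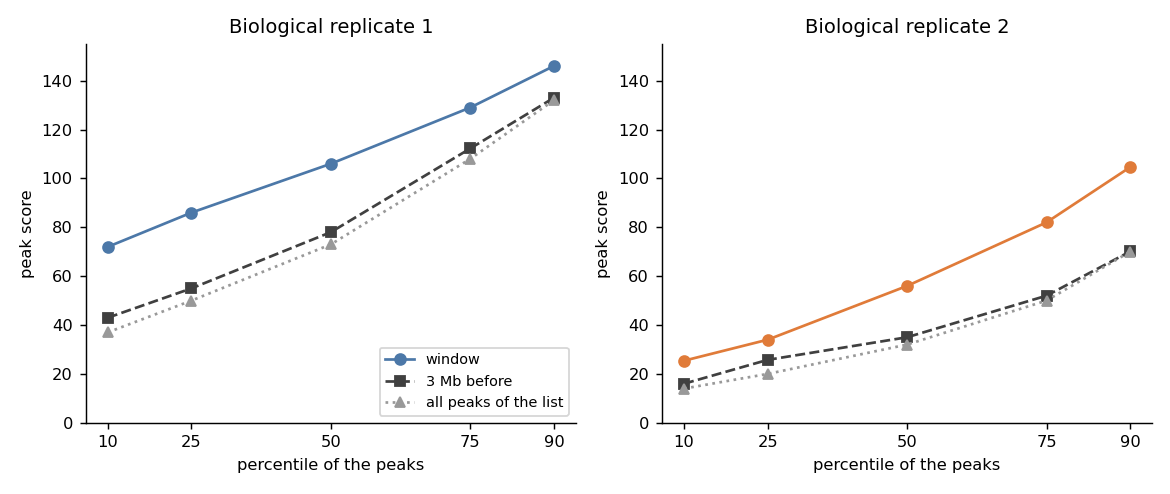
Peak score (vertical axis) at the 10th, 25th, 50th, 75th and 90th percentiles of the window, the 3 Mb before and the whole list. In replicate 1 the window's line meets the others most closely at the top, near the ceiling of 150, and in replicate 2 it moves away from them.

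Counted by class, no peak of 359 in replicate 1 scored below 50, where 24.8% of the list did and 93 of 588 peaks (15.8%) did in the 3 Mb before. In replicate 2, 4 of 125 (3.2%) scored below 20, against 23.2% of the list and 24 of 180 (13.3%) before. The highest class was enlarged: 84 peaks (23.4%) of replicate 1 scored 132 or more, against 10.2% of the list and 10.9% before. In replicate 2, 43 peaks (34.4%) scored 70 or more, against 10.2% of the list and 10.6% before. Since these scores chose the window, nothing is read from the shares.

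Weak peaks were fewer in number as well as in share. Peaks below the list's 25th percentile numbered 0 per Mb in the window and 31 per Mb before in replicate 1, and 4 and 8 in replicate 2. The single Mb before held 7, 5 and 12 such peaks in replicate 2, so its 4 was near the lowest of these. Peaks at or over its 75th percentile numbered 173 against 54.3 per Mb in replicate 1 and 71 against 17.3 in replicate 2. Between the 25th percentile and the median there were 39 against 53.7 per Mb in replicate 1 and 21 against 16 in replicate 2. Against the 3 Mb before, this was the only class of the 4 in which the lists went opposite ways. The Mb next to the window held 82 and 26 such peaks, above the window in both lists.

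The window has 18 protein-coding genes by their starts. Of these, 14 (77.8%, Wilson 95% interval 54.8 to 91.0%) had a replicate 1 peak within 1000 bp of a start, against 58.3% of all coding genes and 27 of 37 genes in the 3 Mb before. In replicate 2 it was 12 (66.7%, 43.7 to 83.7%), against 49.4% of all and 22 of 37 before. Both intervals include the share of all genes and the share before, so a difference in the presence of promoter peaks is not detectable with 18 genes. The median of the best promoter score was 147.5 (118 to 150) in replicate 1, against 139 before and over all genes. In replicate 2 it was 91 (65 to 107), against 68 before and 63 over all.

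The genes are unevenly placed. Aspg, an asparaginase gene, and Kif26a, of the kinesin family, start in the first 147 kb, none starts in the next 341 kb, and the other 16 start in the last 512 kb. Aspg had no promoter peak in either list. Kif26a scored 134 in replicate 1 and 43 in replicate 2, and 36.3% and 21% of all promoters with a peak scored lower. The first gene past the empty stretch, A530016L24Rik, had no promoter peak, and its neighbour Tmem179, coding for a membrane protein, scored 107 and 24, with 15.3% and 4.77% of promoters lower. The early genes and the first ones past the gap thus had no high promoter score.

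From Inf2 on the promoter scores were high. Inf2, which codes for an actin-assembling formin, scored 148 and 83. Adssl1, an adenylosuccinate synthase of purine nucleotide synthesis, scored 148 and 96. Siva1, an apoptosis-inducing factor, scored 150 and 107. Akt1, the kinase of growth and survival signalling, scored 150 and had the window's highest replicate 2 promoter score, 117, and 99.3% of promoters with a replicate 2 peak scored lower. Its peak lies at chr12:112674756-112674905, 555 bp from the start, and is not printed because 129 of its bases fall in annotated untranslated exons.

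The genes after Akt1 were mixed. Zbtb42, a zinc finger gene, scored 118 in replicate 1 and had no replicate 2 peak, and the same held for Ahnak2 at 88. Cep170b, a centrosomal protein gene, scored 142 and 65. Pld4, a lysosomal exonuclease gene, scored 148 and 105, and Clba1, named for clathrin binding, 148 and 94. Cdca4, a cell division cycle associated gene, scored 150 and 112. Gpr132, coding for a G protein-coupled receptor, scored 143 and 69. Nudt14, a UDP-sugar hydrolase gene, scored 147 and 88. Jag2, a Notch ligand gene, and Btbd6, an adaptor of a ubiquitin ligase, had no promoter peak in either list. So 7 of the 14 promoters in replicate 1, at 148 or more, and 6 of the 12 in replicate 2, at 94 or more, reached the 90th percentile of all promoters with a peak, which ties bring to 12.1% and 10.3% of them. In the 3 Mb before it was 5 of 27 and 3 of 22, and in the 3 Mb after, 4 of 8 and 4 of 7, so a like share was found past the window.

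High promoter scores went on past the window. Brf1, a subunit of an RNA polymerase III initiation factor, scored 149 and 99, Pacs2 148 and 112, and Tedc1 150 and 124. Tex22 scored 148 and 94, Crip2 146 and 79 and Crip1 147 and 76. Mta1, of the NuRD remodelling complex, scored 129 and had no replicate 2 peak, and Tmem121, the last coding gene before the immunoglobulin locus, scored 112 and 27. At the near edge Tdrd9 scored 148 and 92, Rd3l 58 with no replicate 2 peak, and Atp5mpl 119 and 41. After the run Adam6b and Adam6a had no promoter peak, and the next coding gene, Zfp386, scored 150 and 119.

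**Figure D4:**
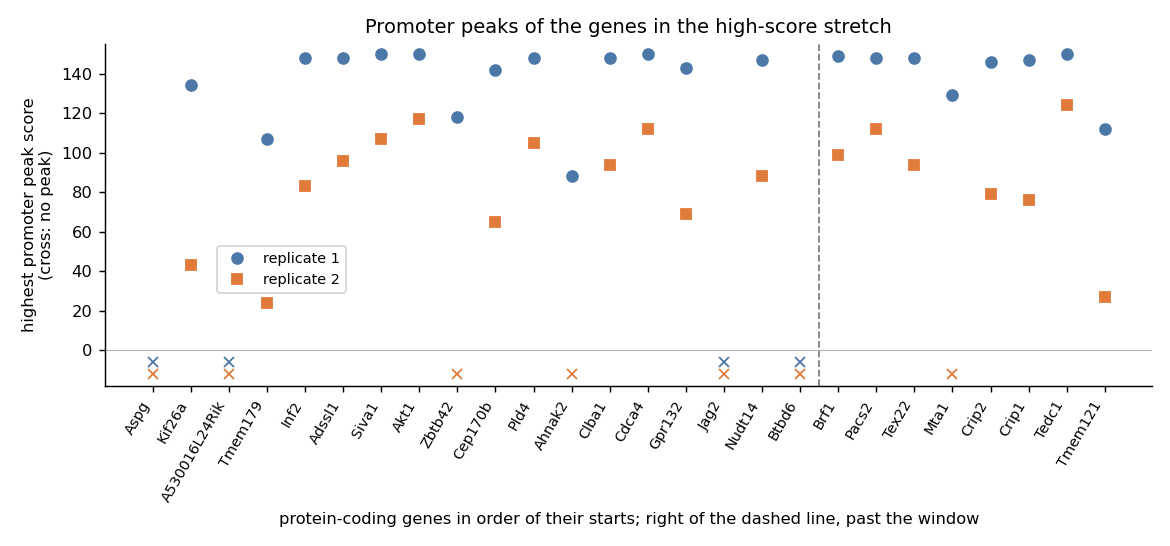
Highest promoter peak score within 1000 bp of a start (vertical axis) for the 18 coding genes of the window in order of position and, right of the dashed line, the 8 genes that start between the window and the end of the replicate 1 run; crosses mark genes with no peak. From Inf2 on most scores are near 150 in replicate 1, and in replicate 2 they range up to 117 in the window.

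By location, promoter, intron and intergenic peaks each had a higher median in the window than before in both lists. Peaks within 1000 bp of a coding start made up 14.2% of the window's replicate 1 peaks and 24.8% of its replicate 2 peaks, against 13.4% and 17.2% before. Promoter peaks had a median of 128 in the window and 106 before in replicate 1, and 59 and 51 in replicate 2. Intron peaks had medians of 106 and 71 in replicate 1 and 54.5 and 29.5 in replicate 2. Intergenic peaks had medians of 101 and 76, and of 54.5 and 38. For each of these locations the intervals of window and reference were apart in replicate 1 and overlapped in replicate 2. Peaks in exons were few: 27 of replicate 1 had a median of 79 (69 to 102), against 85.5 (65 to 100) before, and 4 of replicate 2 had a median of 66, against 36.5 over 10 before. For exon peaks the replicate 1 intervals overlap, and the lists went opposite ways.

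The stretch of 341 kb without a coding start shows both lists away from promoters. Replicate 1 had 60 peaks there, from 61 to 150, with a median of 84 (75 to 92), and replicate 2 had 20, from 16 to 126, with a median of 38 (23 to 56). Away from promoters, the 512 kb after it had 226 and 67 peaks with medians of 106 (100 to 111) and 62 (53 to 73). The Mb before the window had 257 and 73 such peaks, with medians of 75 (71 to 79) and 32 (28 to 34).

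The 5 highest replicate 2 scores away from promoters fell in 4 places. The group at the step held 2 of them, the site of 126 printed above and a peak of 116 at chr12:112463896-112464045. The site at chr12:112833676-112833825, 4328 bp from the start of Cdca4, scored 123. The site at chr12:112864916-112865065, 4039 bp from Gpr132, scored 118, and that at chr12:112599276-112599425, in an intron of Inf2, scored 116. In replicate 1, 7 peaks away from promoters tied at 150. The weakest replicate 1 peak, of 56, lay at chr12:112770416-112770565, between Pld4 and Ahnak2, and the other replicate 2 peak of 16 at chr12:112291456-112291605, 145323 bp from Kif26a.

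Of 18 other annotated genes in the window, some had a peak within 1000 bp of their start, and those named here were picked after their values were seen. Mir203, a miRNA gene known from skin, scored 122 in replicate 1 with no replicate 2 peak. The long non-coding genes Gm26583 and 1700127F24Rik scored 150 and 148 in replicate 1, and 75 and 96 in replicate 2.

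The lists found the same sites in the window about as often as elsewhere. Of the window's replicate 2 peaks, 92% (85.9 to 95.6%) had an overlapping replicate 1 peak, where the 3 Mb before had 91.7% and the list 94.7%. For replicate 1 peaks the share was 32.03% (27.4 to 37.0%), against 28.2% and 30.2%. Window peaks of replicate 1 without a replicate 2 partner had a median score of 93, against 65 before and 58 over the list. The 10 window peaks found in replicate 2 alone had scores from 16 to 116, and a replicate 1 peak was centred within 800 bp of each.

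At a given replicate 2 score, the replicate 1 score was like that elsewhere. Where replicate 2 scored 20 to 29, replicate 1 had a median of 109.5 over 14 pairs in the window and 109 over 18762 pairs in the genome. Where it scored 30 to 39 the medians were 128 and 122, at 40 to 59 they were 135 and 134, at 60 to 89 they were 143.5 and 143, and at 90 or more both were 148. In these classes the replicate 1 medians of paired window sites thus lay near the genome-wide ones, furthest apart at 30 to 39. Pairs with a replicate 2 score below 20, and replicate 1 peaks without a partner, are not covered.

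Hotspots, the wider accessible regions deposited beside the peaks, come from the same reads and are no separate evidence. They numbered 253 per Mb in the window and 141 before in replicate 1, and 105 and 56 in replicate 2, and covered 148.5 kb against 83.9 kb per Mb, and 41.2 kb against 17.1 kb. Their median widths were 327 and 306 bp in replicate 1 and 280 and 260.5 bp in replicate 2. The share whose −log10 q-value stood at the cap of 100 was 48.6% (42.5 to 54.7%) against 53.3% (48.5 to 58.0%) before in replicate 1, and 49.5% (40.1 to 58.9%) against 41.7% (34.5 to 49.2%) in replicate 2. Hotspots were thus denser in both lists, without a larger share at the cap beyond these intervals.

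Among all 1-Mb windows with at least 20 peaks, the window was extreme at its low end as well as in its middle. Its median ranked 1 of 2071 in replicate 1 and 2 of 1417 in replicate 2. Its 10th percentile ranked 2 and 3, its 90th percentile 3 and 2, and its lowest score 2 and 6, the last shared by 8 windows. Its number of peaks ranked 43 and 37. The nearest windows by median in replicate 1 were 96 to 97 Mb of chromosome 3, at 105 with 599 peaks, and 97 to 98 Mb of chromosome 3, at 103 with 291 peaks. The former led replicate 2, at 58 with 239 peaks.

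**Figure D5:**
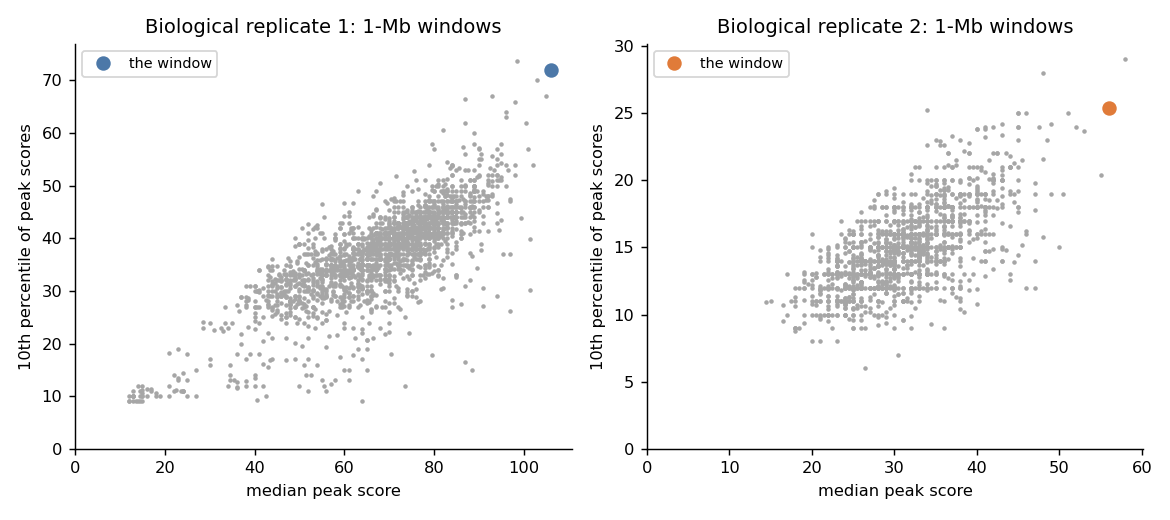
The 10th percentile of peak scores against their median for 1-Mb windows with 20 or more peaks, in each list; the coloured point is the window. It has the highest median in replicate 1, at 106, and the second highest in replicate 2, at 56.

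The rule did not use sequence, and the window's sequence was also unusual. It was 51.7% G or C, rank 5 of 2660 windows, against 45.7 to 48.0% in the 3 windows before and a median of 41.3% in the genome. It had 16.6 CpG dinucleotides per kb, rank 17. Repeats marked in the assembly covered 19.5%, lower than in all but 16 windows. Its 18 coding genes ranked 323, within the 3 to 22 genes of the windows before, and its share of words occurring once on the chromosome, 94.4%, lay within their 90.5 to 94.6%. Peaks themselves had a median of 54.0% G or C against 51.3% before in replicate 1, and 54.7% against 53.3% in replicate 2.

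Base composition moved with scores across the genome. Over 2063 windows of replicate 1, Spearman's rho between the share of G or C and the median score was 0.60, and over 1414 windows of replicate 2 it was 0.37; windows share their library, and these values describe the lists. The 10 other windows richest in G or C had replicate 1 medians from 69 to 98 and 10th percentiles from 30.6 to 54, against 106 and 72 in the window. Their replicate 2 medians ran from 28 to 47.5 and their 10th percentiles from 12 to 24, against 56 and 25.4. The window, which was chosen for its high scores, lay above each of these 10 in both measures and both lists. In replicate 2 the interval of its 10th percentile, 21 to 29, held the highest of theirs, 24. The part of base composition in its scores was not tested.

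Motif words in the peaks were counted as a description, on either strand. The GATA word was in 8.91% (6.38 to 12.3%) of the window's replicate 1 peaks, against 11.6% before and 13.5% (12.9 to 14.1%) on the rest of the chromosome. In replicate 2 it was in 11.2% (6.79 to 17.9%), against 15.0% and 17.4%. The RUNX word was in 3.06% (1.72 to 5.40%) of replicate 1 peaks, against 6.63% and 6.35%, and in 5.6% against 6.11% and 6.27% in replicate 2. The SP word was in 12% (7.41 to 18.9%) of replicate 2 peaks, against 8.89% and 6.07%, and in 4.18% against 4.25% and 2.57% in replicate 1. The CTCF consensus was in 8.8% (4.98 to 15.1%) of replicate 2 peaks, against 5.56% and 4.71%, and in 3.06% against 2.04% and 2.05% in replicate 1.

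The AP-1 word was in 12.8% (8.03 to 19.8%) of replicate 2 peaks, against 8.89% and 8.51%, and in 6.96% against 8.67% and 8.11% in replicate 1. The KLF word was in 3.06% of replicate 1 peaks, as before, and 4.0% of replicate 2 peaks against 2.78%. The ETS word was in 2.79% against 1.36%, and in 3.2% against 3.89%. On the rest of the chromosome the KLF word was in 2.20% and 2.95% of peaks, and the ETS word in 1.17% and 2.95%. Compared with that rest, the window's sites held fewer GATA and RUNX words in both lists. They held more KLF, ETS, SP and CTCF words in both lists, and for AP-1 the lists went opposite ways. The intervals leave out the chromosome's share for GATA, RUNX and ETS in replicate 1 and for SP and CTCF in replicate 2. Against the 3 Mb before, the SP word was not more frequent in replicate 1. The intervals for GATA, SP and CTCF hold the share before in both lists. Those for RUNX and ETS in replicate 1 leave it out.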

How the data were processed

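DNase-seq peaks and hotspots of MEL cells were analysed as the authors deposited them, in mm10 coordinates per the labels. Peaks carried the authors' deposited score, and hotspots a deposited −log10 q-value with a cap of 100. Replicate 1 regions came from the merged alignment of its libraries. Merging and depth can change how many weak sites are listed, and the depth is not given in the sources used here.

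Repeated peak lines were dropped, 67 from replicate 1 and 7 from replicate 2. Genes and exons came from the GENCODE M21 basic annotation of GRCm38, and a promoter peak was centred within 1000 bp of a coding transcript's start. Edges were found by least squares (shortest stretch 100 kb) and as runs of consecutive peaks above a percentile, the latter added after the data were seen. On simulated data 47 of 50 planted rises were found within 10 peaks at both ends, and 50 of 50 runs exactly. The runs were planted wholly over the limit with a lower peak at each end, so their recovery was fixed in advance. The simulated scores had no block of very low values like the immunoglobulin locus. These counts therefore check the code and do not measure the accuracy of the edges found here. Words were searched in the whole 150-bp peak. A word counted as occurring once when no other position of the chromosome, on either strand, held the same 32 bases. Intervals are Wilson intervals for shares and order-statistic intervals for percentiles, at 95%. The tools were scipy 1.17.1, matplotlib 3.10.9, pandas 2.3.3 and numpy 2.4.6 under Python 3.11.15.

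The window, the gene lists and the motifs were chosen with earlier results of these data known. Named genes were all coding genes starting in the window, those at the edges, and genes beside the 5 highest peaks away from promoters. Sequences of the far edge of the run are not printed, and that of the first peak of the run is not reported here. Genes past the window within the run, non-coding genes and like windows were named with their values known. With 1 list per replicate no test between samples was made. Alternatives were other references, longer and shorter promoters, subsets of peaks and other edge searches.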

Additional observations from a re-analysis of the deposited data

How the results depend on the processing

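The alternatives were compared with the interval of each value, with 100 kb for edges and with 1.5 times for counts. None changed the direction of a difference in score. Edge positions, ratios, counts and shares are always positive, so they could not change sign. Of the alternatives, 40 stayed within their range and 26 moved outside it. In replicate 1 the window's median lay 67 above both flanks, 48 with flanks of 1 Mb, 41 against the rest of the chromosome, 32 against other autosomes, 28 against the 3 Mb before, 79 against the 3 Mb after, 4.5 in the higher-scoring 50% of the list and 10 among peaks found in both lists. In replicate 2 it lay 18.5 above both flanks and 26 above the rest of the chromosome. Replicate 1 peaks per Mb were 1.11 times those of the flanks, and 4.36 times when both lists were cut to equal length. The 10th percentile in replicate 1 lay 58 above both flanks, 34 above other autosomes and 29 above the 3 Mb before, and the 25th 65; in replicate 2 it lay 6.7 above flanks and 11.4 above other autosomes. The 90th in replicate 1 lay 32 above flanks, 14 above other autosomes and 13 above the 3 Mb before, and the 75th 57. Apart from the choice of reference or subset, the cause was not tested.

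The replicate 1 start moved from 109.392 Mb to 112.463 Mb with the search ended at the immunoglobulin locus, 111.608 Mb for a run over the 10th percentile and 111.982 Mb over the 25th; its end moved from 113.263 Mb to 113.404 Mb for a run over the 10th. The replicate 2 start moved from 112.463 Mb to 111.843 Mb and 112.717 Mb for those runs, and its end from 112.876 Mb to 116.491 Mb and 113.223 Mb, and to 113.221 Mb on ranks. Replicate 2 overlap fell from 92.0% to 85.6% when 50% of a peak had to be covered. The runs and the shortened search were chosen after seeing the data. Promoter counts of 14 and 12 genes became 13 and 11 within 500 bp. No paired analysis was possible because each biological replicate has 1 list and there are no groups to compare.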
